A study of Homo sapiens with 6 samples.

Results

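The genes described here encode RNA polymerase I, RNA polymerase III and the factors that place these enzymes on their genes. The list held 39 genes, fixed by name with earlier results of these data known. It comprised 22 polymerase subunits, of which 5 are also part of RNA polymerase II, and 6 initiation factors of RNA polymerase I. The rest were 7 genes of TFIIIA and TFIIIC, 3 genes of TFIIIB and the repressor gene MAF1. A gene entered through probe sets (groups of array probes for a transcript) annotated with exactly 1 symbol, and was represented by its probe set with the highest mean over the 6 arrays. Of the 39 genes, 38 had such a probe set, 111 in all, among 18132 genes on the array. The filter on low signals, which left out the lowest 25% of genes by mean, kept all 38 among the 13599 genes tested. POLR3E had 1 probe set, annotated with its symbol under 2 gene IDs, and is given apart.

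Expression was measured on Affymetrix arrays in TE-1, a human line from an oesophageal squamous cell carcinoma, grown in medium with foetal bovine serum. The knockdown group held 3 samples of 1 clone of TE-1 with a stable knockdown of EIF3C, a subunit gene of the translation initiation factor eIF3. The control group held 3 samples of the parental TE-1 cells. The labels number the samples as biological replicates without saying that they were separate cultures, and name no control construct and no further clone, so p-values measure the spread between these samples, and the knockdown and the clone cannot be told apart.

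RNA polymerase I (Pol I) transcribes the ribosomal DNA repeats in the nucleolus into the precursor of the large ribosomal RNAs. RNA polymerase III (Pol III) makes 5S ribosomal RNA, tRNAs and other short RNAs such as U6 and 7SK. Both are activated in growing cells by MYC and mTOR signalling, and their output is often high in tumour cells. The arrays measured the mRNAs that encode the machinery, not the amount of ribosomal RNA or tRNA made.

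Values are log2 signals as deposited, which ran from 1.95 to 14.14, with array medians of 6.09 to 6.11. Arrays of the same group correlated at 0.9977 to 0.9985, and arrays of different groups at 0.9824 to 0.9846. The brightest probe set for EIF3C had 8.42, 8.41 and 8.49 in knockdown, against 10.69, 10.60 and 10.56 in control (22.1% of control), and 4 further ones were also lower, all of them shared with the near-identical copy EIF3CL. The epithelial genes EPCAM and KRT8 had mean log2 signals of 12.10 and 13.28 in knockdown, against 11.89 and 13.03 in control. The leukocyte gene PTPRC had 2.85 in knockdown and 2.87 in control. CD3E, CD68 and CD79A, also of leukocytes, were brighter, at 4.96, 5.88 and 6.02 in knockdown and 5.08, 6.05 and 6.05 in control. Endothelial CDH5 rose (6.31 in knockdown, 5.84 in control), while PECAM1 and VWF did not pass. Among fibroblast genes, COL1A1 fell (5.39 in knockdown, 5.60 in control), and COL3A1, DCN and LUM were below the signal filter. Of 6 epithelial genes with a probe set, 4 rose, KRT19 fell (12.12 in knockdown, 12.67 in control) and the basal squamous keratin gene KRT5 did not pass (6.09 in knockdown, 5.91 in control). Of all genes tested, 66.5% passed an adjusted p of 0.05 (limma with Benjamini-Hochberg adjustment over the 13599 genes), so a passing gene is common here and sizes matter. Among 85 control probe sets for non-human sequence, differences between the groups ran from -0.22 to 0.20 on the log2 scale, and 0.22 is used below as a measure of technical difference. The human control genes ACTB and GAPDH averaged 13.43 and 13.36 in knockdown, against 13.21 and 13.39 in control. In the same limma fit ACTB rose by 0.22 (adjusted p = 3.56e-09), whereas GAPDH did not pass (log2 fold change -0.03, adjusted p = 0.151).

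Genes of the Pol I and Pol III machinery were mostly higher in the knockdown. Of the 38 tested, 26 rose, 4 fell and 8 did not pass, whereas 32.4% of all genes tested rose and 34.1% fell. The members' median log2 fold change (knockdown minus control throughout) was 0.20, beside -0.03 over all genes tested. The median size of a change, whatever its direction, was 0.24 in the members and 0.23 over all genes tested. Of the called changes, 17 rises and 2 falls exceeded 0.22, beside 25% and 25.7% of all genes, and 11 lay within it. By at least 1.5-fold, 5 members rose and 2 fell, beside 8.84% and 7.71% of all genes. POLR1E and TAF1A rose at least 2-fold, as did 2.60% of all genes, and UBTF fell at least 2-fold on the probe set that represents it, as did 2.22%. In 26 members every knockdown array lay above every control array and in 5 every one lay below, beside 33.6% and 36.7% of all genes. The samples are bulk RNA, in which fewer cells with a transcript and less transcript per cell cannot be told apart.

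**Figure D1:**
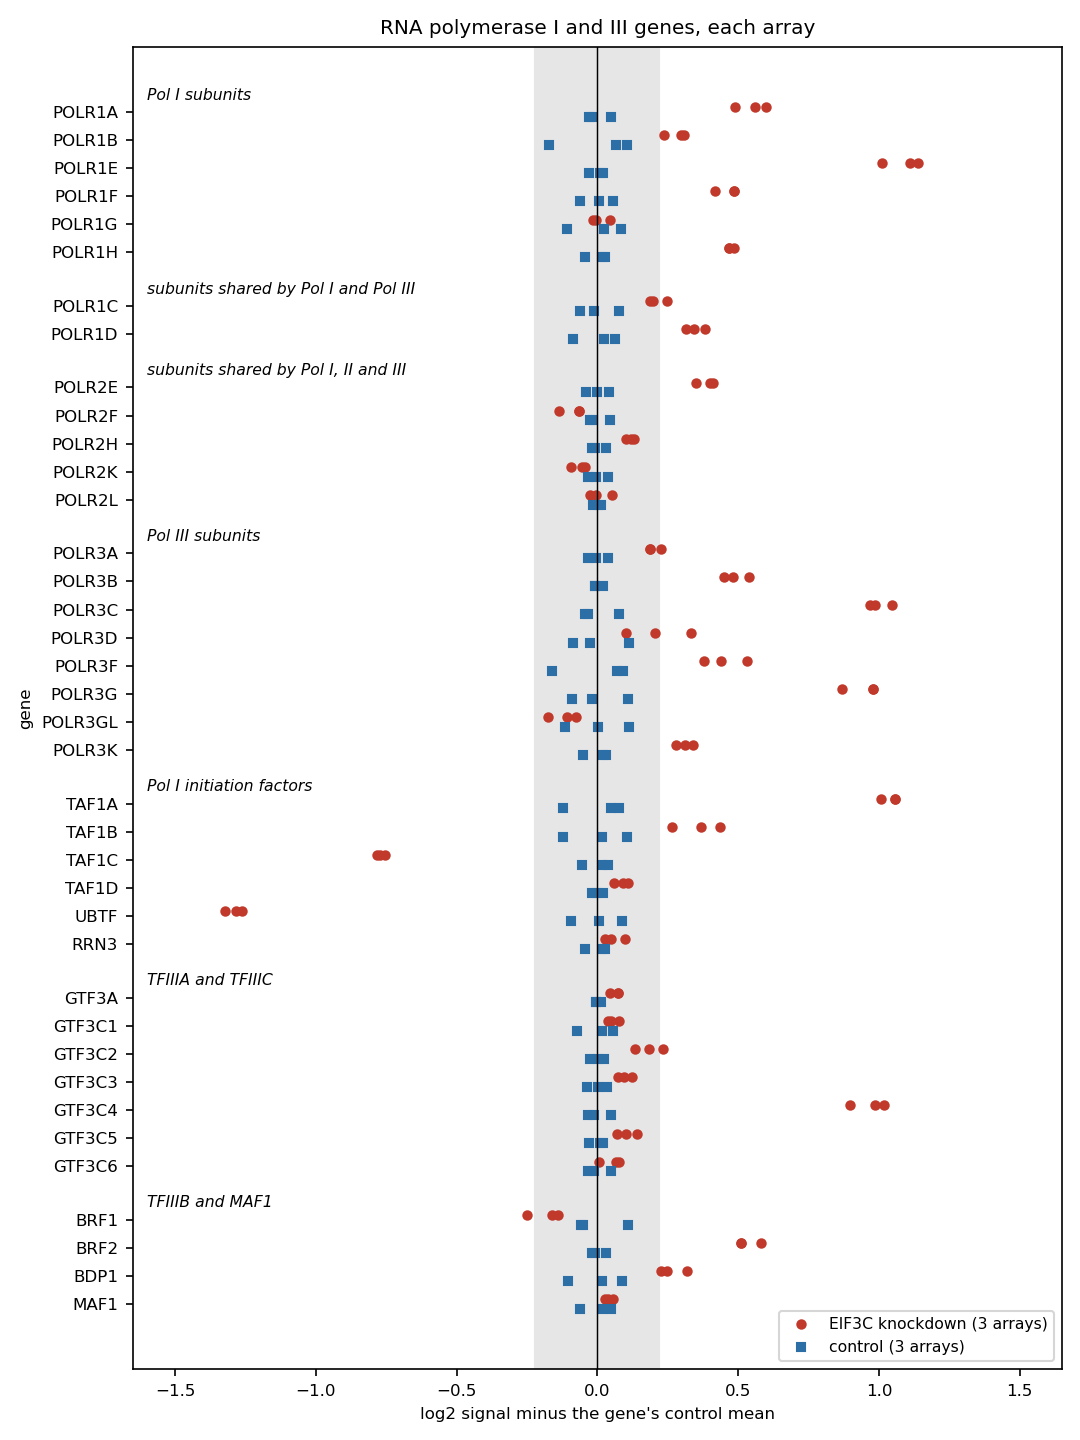
Log2 signal of each array minus the gene's control mean (x axis) for the 38 members, grouped by role (y axis); red circles are the 3 knockdown arrays, blue squares the 3 control arrays, and the grey band reaches 0.22 either way, the most that any non-human control differed. The knockdown arrays of 26 genes lie wholly to the right of their control arrays, with POLR1E and TAF1A farthest right and UBTF farthest left.

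Of the members, 7 changed by at least 1.5-fold, and the RefSeq promoter table (build GRCh38.p14) held a window for 5 of them. Their sequences are shown because the members' promoters were searched for the E-box, the CACGTG motif bound by MYC and related factors. Each run holds the 200 bases before the first listed start, 5′ to 3′ in the direction of transcription, with a CACGTG in capitals. GTF3C4, POLR3C and TAF1A rose, and TAF1C and UBTF fell, UBTF on 1 of 4 probe sets. The run of GTF3C4 lies at chr9:132669835-132670034 on the plus strand, that of POLR3C at chr1:145824000-145824199 on the plus strand, that of TAF1A at chr1:222589934-222590133 on the minus strand, that of TAF1C at chr16:84187058-84187257 on the minus strand and that of UBTF at chr17:44220883-44221082 on the minus strand.
GTF3C4: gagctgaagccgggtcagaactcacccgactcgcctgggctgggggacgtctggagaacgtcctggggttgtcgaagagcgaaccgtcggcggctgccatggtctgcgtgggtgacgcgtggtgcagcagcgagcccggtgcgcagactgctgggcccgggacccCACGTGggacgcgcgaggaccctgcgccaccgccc
POLR3C: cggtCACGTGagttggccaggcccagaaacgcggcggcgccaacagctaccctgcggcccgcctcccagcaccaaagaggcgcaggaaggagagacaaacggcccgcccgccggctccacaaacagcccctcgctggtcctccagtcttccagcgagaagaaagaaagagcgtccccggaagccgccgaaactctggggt
TAF1A: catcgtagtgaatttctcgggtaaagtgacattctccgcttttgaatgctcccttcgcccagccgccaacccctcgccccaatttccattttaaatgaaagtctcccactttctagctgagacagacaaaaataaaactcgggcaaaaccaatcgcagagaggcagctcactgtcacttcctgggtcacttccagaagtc
TAF1C: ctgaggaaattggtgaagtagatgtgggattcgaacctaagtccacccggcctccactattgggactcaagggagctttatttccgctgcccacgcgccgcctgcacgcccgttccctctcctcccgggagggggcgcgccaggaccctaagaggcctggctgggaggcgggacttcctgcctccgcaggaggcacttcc
UBTF: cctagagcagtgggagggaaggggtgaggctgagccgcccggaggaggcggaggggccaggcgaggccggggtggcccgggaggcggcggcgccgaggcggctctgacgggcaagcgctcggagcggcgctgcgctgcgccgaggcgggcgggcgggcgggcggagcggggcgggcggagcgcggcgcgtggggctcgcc

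The E-box begins 35 bases before the start in the run of GTF3C4 and 196 bases before it in that of POLR3C, and the other runs hold none. GC content was 71.5% for GTF3C4, 66.5% for POLR3C, 48.5% for TAF1A, 64% for TAF1C and 83% for UBTF. Windows of 300 bases, 250 before and 50 after a start, were held for 33 of the 39 genes, some with several starts. CACGTG, which reads the same on both strands, occurred for 7 of the 33 genes, or 21.2%, and for 8.77% of all 27305 genes in the table. By window it occurred in 14.9% of the members' 47 and in 7.26% of all 35116. The genes in the table were not limited to those tested for expression. The 7 member genes were GTF3C2, GTF3C4, GTF3C6, POLR1G, POLR3A, POLR3C and POLR3E. Of these, GTF3C6, and POLR1G on its representative probe set, did not pass the test of expression. POLR3E was outside that test and is given apart. The rises of GTF3C2 (0.18) and POLR3A (0.20) lay within 0.22. The TATA box letters TATAAA, searched on both strands, occurred for 1 of the 33, GTF3C3, and for 14% of all genes. A match of letters is not a bound site.

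Subunits that belong to Pol I alone rose in 5 cases of 6, each past 0.22, with a median of 0.47. POLR1E, whose product forms a dimer with that of POLR1G and acts in initiation and elongation, rose most. Its log2 signals were 8.33, 8.36 and 8.23 in knockdown, against 7.24, 7.19 and 7.23 in control. The lowest knockdown array was thus far above the highest control array, and the fold was 2.12 (log2 fold change 1.09, SE 0.05, adjusted p = 4.66e-12). Its other probe sets rose by 1.09 and 1.26.

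The largest Pol I subunit, which with the second largest forms the active centre, is encoded by POLR1A. It averaged 7.79 ± 0.06 in knockdown and 7.24 ± 0.04 in control (log2 signal, SD, n = 3 each), a rise of 0.55. POLR1B, the second largest subunit gene, rose by 0.28, with 5 of its 6 probe sets called higher. POLR1F encodes the stalk subunit that binds RRN3. Its signals were 10.39, 10.46 and 10.46 in knockdown, against 10.03, 9.98 and 9.91 in control, without overlap between the groups (log2 fold change 0.46, SE 0.03, adjusted p = 1.64e-09). POLR1H, the gene of the small subunit that acts in RNA cleavage, rose by 0.47.

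POLR1G was the exception by the probe set that represents it, at 8.63 ± 0.03 in knockdown and 8.63 ± 0.10 in control (adjusted p = 0.88). Its other probe sets were called higher, at 0.26 and 0.54, and the mean of the 3 rose by 0.27 (adjusted p = 2.87e-05). The value for POLR1G therefore turned on the choice of probe set.

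The subunits common to Pol I and Pol III, POLR1C and POLR1D, form the dimer on which both enzymes assemble. POLR1C had 8.25, 8.20 and 8.19 in knockdown, against 8.08, 7.94 and 7.99 in control, a rise of 0.21, which is within 0.22. POLR1D rose by 0.35 on its representative and by 0.52 on a further probe set, while the last of its 3 probe sets was called lower, at -0.43 (adjusted p = 3.97e-07 over all probe sets).

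The 5 subunits that all 3 nuclear polymerases share had the smallest median among the subunit groups, 0.01. POLR2E rose by 0.38 on its representative, at 9.17 ± 0.03 in knockdown and 8.78 ± 0.04 in control. Of its 5 probe sets 4 were called higher, and the dimmest was called lower, at -0.48. POLR2H rose by 0.12, within 0.22. POLR2L stood at 0.01 and POLR2K at -0.07, neither of which passed. A further probe set of POLR2K was called lower, at -0.48, and without control replicate 3 the representative also passed (adjusted p = 0.0298). POLR2F had 10.68, 10.75 and 10.75 in knockdown, against 10.80, 10.79 and 10.86 in control. The groups did not overlap but lay close, and the fall of 0.09 (adjusted p = 0.00866) was lost without knockdown replicate 1 (adjusted p = 0.0619).

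Subunits of Pol III alone rose in 7 cases of 8, 5 of them past 0.22, with a median of 0.38. POLR3C, POLR3F and POLR3G encode the subcomplex through which Pol III meets TFIIIB at the promoter, and all 3 rose. POLR3C had 9.34, 9.40 and 9.32 in knockdown, against 8.31, 8.32 and 8.43 in control. Each knockdown array lay about 1 log2 unit above the controls (log2 fold change 1.0, SE 0.04, adjusted p = 1.22e-12), and its other probe sets rose by 1.08 and 1.12. POLR3F averaged 7.04 ± 0.08 in knockdown and 6.59 ± 0.14 in control, a rise of 0.45, and its further probe set rose by 0.70. POLR3G had 5.85, 5.96 and 5.96 in knockdown, against 5.09, 4.89 and 4.96 in control. The groups did not overlap (log2 fold change 0.94, SE 0.08, adjusted p = 2.38e-08), but the signal was dim, above those of only 35.0% of genes on the array, and a dimmer second probe set at 2.69 in knockdown and 2.57 in control was not called. POLR3G was below the filter, and so not tested, when 50% of genes were left out or when probe sets were averaged.

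Both catalytic subunit genes of Pol III rose. POLR3A, the largest subunit, rose by 0.20, which is within 0.22. POLR3B, the second largest, rose by 0.49, at 7.67 ± 0.05 in knockdown and 7.18 ± 0.01 in control. POLR3K, which acts in RNA cleavage and termination, rose by 0.31 on its representative, and with a dim further probe set at -0.15 the mean of both did not pass (0.08, adjusted p = 0.176). POLR3D and POLR3E encode a dimer related to the Pol II factor TFIIF. POLR3D had 7.59, 7.36 and 7.46 in knockdown, against 7.23, 7.17 and 7.37 in control. The lowest knockdown array lay just below the highest control array. The rise of 0.21 (adjusted p = 0.0106) was within 0.22, and its call was lost without knockdown replicate 1 (0.0788) or control replicate 2 (0.0586). All 5 probe sets of POLR3D were called higher, by 0.21 to 0.37. The probe set annotated with the POLR3E symbol under 2 gene IDs averaged 8.03 ± 0.02 in knockdown and 7.78 ± 0.02 in control, a rise of 0.25 (adjusted p = 0.000205 in a fit over all human probe sets).

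**Figure D2:**
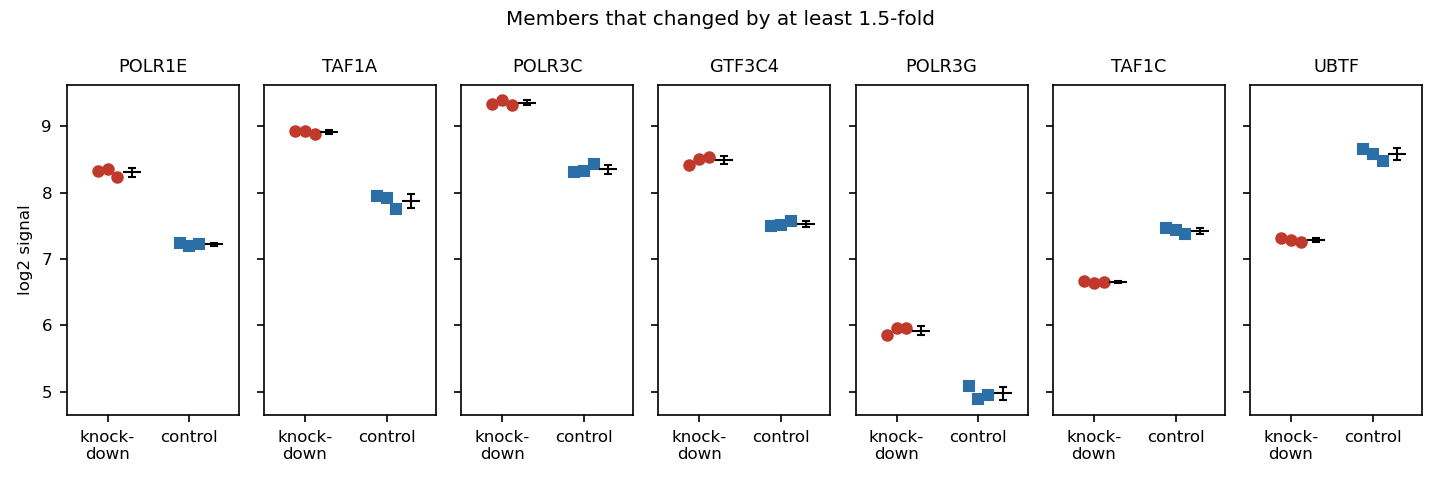
Log2 signal (y axis) of the 7 members that changed by at least 1.5-fold, with the 3 knockdown arrays (red circles) left of the 3 control arrays (blue squares) and black bars for the mean ± SD. POLR1E, TAF1A, POLR3C, GTF3C4 and POLR3G were higher in every knockdown array and TAF1C and UBTF lower.

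Initiation factors of Pol I went both ways and included both members that fell by more than 0.22. Of 6 genes, 3 rose (50%), 2 fell (33.3%) and 1 did not pass, beside 32.4% higher and 34.1% lower over all genes tested. The share that fell was thus close to that over all genes. The promoter selectivity factor SL1 consists of the TATA-binding protein and the products of TAF1A, TAF1B, TAF1C and TAF1D, and recruits Pol I to the ribosomal DNA promoter. TAF1A had 8.93, 8.93 and 8.88 in knockdown, against 7.95, 7.92 and 7.75 in control. It was higher in each knockdown array (fold 2.06, log2 fold change 1.04, SE 0.05, adjusted p = 8.45e-12), and all 5 of its probe sets were called higher, by 0.49 to 1.05. TAF1B rose by 0.36 on its representative, whereas its other probe sets stood at 0.04 and -0.01 and were not called.

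TAF1C had 6.67, 6.64 and 6.65 in knockdown, against 7.46, 7.44 and 7.37 in control. It was lower in each knockdown array, at 58.7% of control (log2 fold change -0.77, SE 0.06, adjusted p = 1.69e-09). Of its 3 further probe sets, all dimmer, 1 was called lower at -0.27 and the others stood at -0.17 and -0.01. TAF1D rose by 0.09, less than 0.22, and its call was lost without control replicate 2 (adjusted p = 0.104) or knockdown replicates 2 (0.0847) or 3 (0.114). Genes of the same complex thus changed in opposite directions.

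UBTF encodes the HMG-box factor that coats active ribosomal DNA repeats. On its representative it had 7.31, 7.29 and 7.25 in knockdown, against 8.66, 8.58 and 8.48 in control. The arrays fell into separate ranges, and the knockdown stood at 41% of control (log2 fold change -1.29, SE 0.05, adjusted p = 8.37e-13). The other 3 probe sets of UBTF stood at 0.10, -0.03 and 0.10 and were not called. The fall was thus seen on 1 of 4 probe sets, and which transcripts each of them detects was not tested here. RRN3, whose product bridges Pol I and SL1 and answers to growth signals, averaged 8.57 ± 0.04 in knockdown and 8.51 ± 0.04 in control (adjusted p = 0.244) and its other probe sets, at 0.12 and 0.17, did not pass either (adjusted p = 0.19 and 0.0677). A further probe set annotated with RRN3 and its pseudogenes RRN3P1 and RRN3P2 rose by 0.98, at 8.64 ± 0.06 in knockdown and 7.66 ± 0.08 in control (adjusted p = 4.08e-10), and cannot be assigned to 1 of these.

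**Figure D3:**
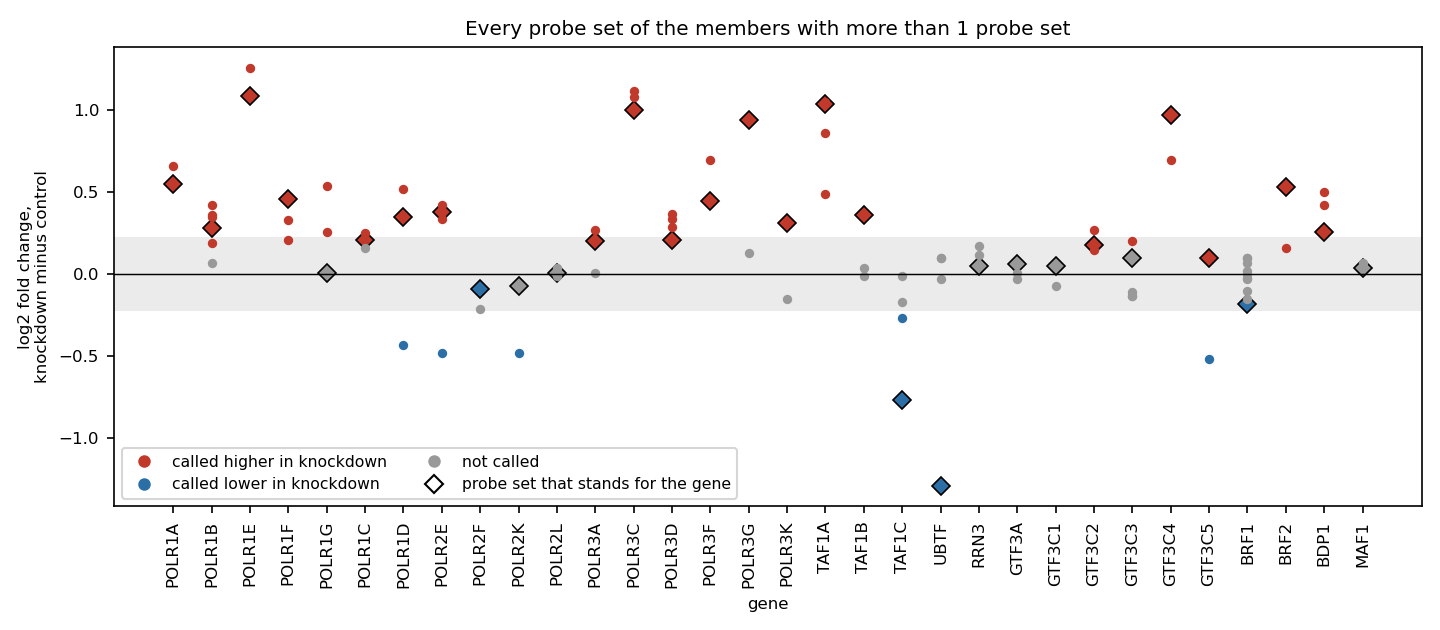
Log2 fold change, knockdown minus control (y axis), of every probe set of the members with more than 1 probe set (x axis); diamonds mark the probe set that stands for the gene, red and blue mark probe sets called higher and lower in the fit over all single-symbol probe sets, and the grey band spans 0.22 either way. All probe sets of POLR1E, POLR3C, TAF1A and GTF3C4 rise, while 1 of 4 probe sets of UBTF lies far below 0.

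Genes of TFIIIA and TFIIIC changed little apart from GTF3C4. TFIIIA, the zinc-finger protein that recognises the 5S gene, is encoded by GTF3A, and the 6 subunits of TFIIIC, which binds the internal promoters of tRNA genes, by GTF3C1 to GTF3C6. Of these 7 genes 5 passed as higher, with a median of 0.10, and only GTF3C4 exceeded 0.22. The count of 5 was 3 without knockdown replicate 1, knockdown replicate 2, control replicate 1 or control replicate 3, and 2 without knockdown replicate 3. It was also 2 with quantile normalization, where GTF3A, GTF3C3 and GTF3C5 did not pass (adjusted p = 0.436, 0.152 and 0.339), and 2 with the mean of each gene's probe sets. GTF3C4, a subunit reported to have acetyltransferase activity, had 8.42, 8.51 and 8.54 in knockdown, against 7.49, 7.51 and 7.57 in control. The groups lay far apart (fold 1.96, log2 fold change 0.97, SE 0.05, adjusted p = 1.08e-11), and its second probe set rose by 0.70.

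GTF3C2 had 9.92, 9.97 and 9.87 in knockdown, against 9.76, 9.71 and 9.74 in control, a rise of 0.18 without overlap (adjusted p = 6.75e-05) that all 3 of its probe sets showed. GTF3A had 10.55, 10.58 and 10.58 in knockdown, against 10.50, 10.52 and 10.50 in control. The groups did not overlap but differed by only 0.06 (adjusted p = 0.0453), and leaving out any 1 of the 6 arrays lost the call (adjusted p of 0.0518 to 0.127). GTF3C3, at 0.10, lost its call without any of 5 arrays, all but control replicate 2 (adjusted p of 0.0684 to 0.139), and turned to -0.02 with the mean of its 5 probe sets. GTF3C5, at 0.10, lost it without knockdown replicate 3 (0.081), and the mean with its dim further probe set was lower, at -0.21 (adjusted p = 0.00921). GTF3C1 and GTF3C6, both at 0.05, did not pass (adjusted p = 0.249 and 0.212).

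TFIIIB positions Pol III at the start site. It contains BDP1 with BRF1 at tRNA and 5S genes, or with BRF2 at genes with upstream promoters such as U6. BRF2 averaged 8.43 ± 0.04 in knockdown and 7.90 ± 0.03 in control, a rise of 0.53 (adjusted p = 6.63e-09), and its further probe set rose by 0.16. BDP1 rose by 0.26, and its other probe sets by 0.42 and 0.50. BRF1 averaged 6.93 ± 0.06 in knockdown and 7.11 ± 0.09 in control, a fall of 0.18, within 0.22. The call was lost without knockdown replicate 2 (adjusted p = 0.074) or control replicate 3 (0.0583), and none of its 9 other probe sets was called, with values of -0.15 to 0.10. MAF1, the repressor of Pol III that acts when mTOR signalling is low, averaged 8.46 ± 0.02 in knockdown and 8.42 ± 0.05 in control (adjusted p = 0.397).

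Pol III exists in alternative forms that carry the product of POLR3G, described in stem cells and tumours, or of its paralogue POLR3GL, described in most differentiated cells. Unlike POLR3G, POLR3GL did not pass, at 7.69 ± 0.05 in knockdown and 7.81 ± 0.11 in control (log2 fold change -0.12, adjusted p = 0.0653), although without control replicate 3 it passed as lower (adjusted p = 0.00459). The log2 fold change of POLR3G exceeded that of POLR3GL by 1.07, and that of BRF1 was below that of BRF2 by 0.72 (difference -0.72). In each pair the per-array differences of the 3 knockdown arrays did not overlap those of the 3 control arrays. An exact two-sided permutation test of 3 against 3 samples gave p = 0.1 for both pairs, also adjusted over the 2 pairs, which is the smallest p this design allows. With all probe sets of a gene averaged, the differences were 0.66 and -0.37, the first with POLR3G below the signal filter.

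**Figure D4:**
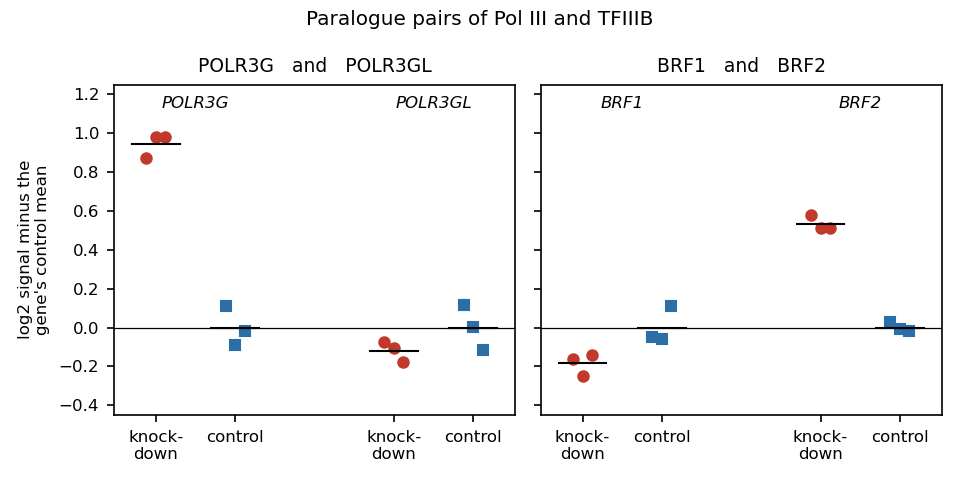
Log2 signal minus the gene's control mean (y axis) for POLR3G with POLR3GL and for BRF1 with BRF2, with the 3 knockdown arrays (red circles) left of the 3 control arrays (blue squares) and black lines at the group means. POLR3G and BRF2 lie above their controls, and their partners do not.

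Over all probe sets with 1 symbol, 58 of the members' 111 were called higher and 9 lower, beside 24.2% and 24.4% of the 44988 such probe sets. Of the 32 members with more than 1 probe set, POLR1D, POLR2E and GTF3C5 had probe sets called in both directions. Without these 3 genes, 23 members were called higher and 4 lower.

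Further genes of the same processes were read from lists that hold no member. These small lists were also chosen with earlier results of these data known. Each gene was read from its probe set with the highest mean alone, and its further probe sets are not given. Over all genes tested, 32.4% rose and 34.1% fell. Components of Pol I and Pol III outside the member list rose in 3 cases of 3, with CRCP, a Pol III subunit gene, up by 0.58, TBP, which is part of SL1 and TFIIIB, by 0.44, and TAF12 by 0.15. Subunits of Pol II alone rose in 5 cases of 7 and did not pass in 2, with POLR2I up by 1.56, POLR2D by 0.71, POLR2B by 0.36 and POLR2J by 0.26. The median of these Pol II genes was 0.26. Of 6 genes for the upstream promoters that BRF2 serves, 3 rose, SNAPC1 by 0.85, ZNF143 by 0.54 and SNAPC3 by 0.23, and 3 did not pass.

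Co-factors of Pol I in the nucleolus rose in 7 cases of 10 (70%) and fell in 1 (10%), beside 32.4% and 34.1% of all genes tested. The topoisomerase gene TOP1 rose by 0.88, TCOF1, whose product binds UBTF and Pol I, by 0.67, NPM1 by 0.48 and NOLC1 by 0.40. Of 6 genes of ribosomal DNA silencing, 33.3% were higher and 33.3% lower, close to the shares over all genes tested (32.4% and 34.1%). SMARCA5 stood at 0.51, DNMT1 at 0.26, SUV39H1 at -0.22 and BAZ2A at -0.15. Genes listed as regulators of Pol I or Pol III rose in 6 cases of 11 (54.5%) and fell in 4 (36.4%). The share that fell was close to the 34.1% of all genes tested. MYC averaged 9.84 ± 0.04 in knockdown and 8.82 ± 0.04 in control, a rise of 1.02 (adjusted p = 1.19e-13). The kinase subunit gene CSNK2A2 rose by 0.90, whereas CSNK2A1 of the same kinase did not pass (log2 fold change -0.06). MTOR rose by 0.77, while RPTOR, also of mTOR signalling, fell by 0.67. The stress-response gene NUPR1 fell by 1.32 on a dim signal, at 4.39 in knockdown and 5.72 in control. The lowest mean that the filter kept was 4.63.

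Genes that handle Pol III transcripts rose in 10 cases of 15 (66.7%) and fell in 4 (26.7%), beside 32.4% and 34.1% of all genes tested. RPP40, a protein subunit gene of the ribonucleases P and MRP, which cut tRNA and ribosomal RNA precursors, rose by 1.78, POP5 by 0.99 and RPP30 by 0.62. POP7 of the same particles fell by 0.88, at 9.09 ± 0.02 in knockdown and 9.97 ± 0.02 in control.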

How the data were processed

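The authors deposited a table of log2 signals for 49395 probe sets. Per the submitters' processing notes MAS5 was used, with no version stated. What else was done to the signals is not given in the sources used here, and the log2 unit was read from the range of the deposited values. Here the arrays were taken as already scaled, so a shift shared by all genes cannot be measured. Detection calls were not used here, so dim probe sets have uncertain folds, and 6 arrays limit the precision.

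Gene names came from the annotation of the platform. Of 44988 with 1 symbol, 44961 matched a RefSeq gene table of GRCh38.p14 by Entrez ID, with 0 symbols changed. Groups were compared with limma 3.58.1 in R 4.3.3 (lmFit, eBayes with trend, no term other than group, Benjamini-Hochberg over all 13599 genes tested), with separate unfiltered fits over 44988 single-symbol and 49293 human probe sets. The fit was tested on simulated data. All members are named. Values per array are given for members changed at least 1.5-fold and called, for the 4 with the highest signals, and for POLR1C and POLR3D, added after their values were seen. Of each further list up to 4 called genes with the largest change are named, with RPTOR and CSNK2A1 added after their values were seen. The members and lists were chosen with earlier results of these data known. Other filters, scalings, probe set rules, variance models, array weights, the replicate block and each array left out were tried.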

Additional observations from a re-analysis of the deposited data

How the results depend on the processing

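Over 16 alternatives, 559 of 606 values of single members stayed on the same side of the threshold with their direction, and 27 of 38 genes did so under every alternative run. POLR3G was not run with the filter of 50% of genes or with averaged probe sets. The count of members called higher, 26, ran from 22 to 26 and the count called lower, 4, from 3 to 6, leave-one-out fits included (22 to 24 higher and 3 to 5 lower). Asking also for a change past 0.22, 17 members were higher and 2 lower, at 1.5-fold 5 and 2, and at 2-fold 2 and 1, by construction fewer. The members' median of 0.20 was 0.175 with quantile normalization and 0.143 when all probe sets of each gene were averaged, and 0.175 to 0.211 with 1 array left out, lowest without control replicate 2. Averaging probe sets also gave -0.0156 for GTF3C3 and -0.209 for GTF3C5, and differences of 0.658 for POLR3G minus POLR3GL and -0.367 for BRF1 minus BRF2. The cause was not tested. Deviations of same-numbered samples from their group means correlated at 0.08, 0.13 and 0.23, and those of differently numbered samples at -0.18 to 0.10. As not all same-numbered pairs were over 0.1, numbers were not taken to pair samples. Whether a number marks a shared batch was not tested. With the replicate number as a block, 26 members were higher and 5 lower, and POLR3GL passed as lower (adjusted p = 0.027), the single call it changed among members. POLR3GL also passed with quantile normalization (0.0127) and array weights (0.014), and POLR2K with quantile normalization (0.00157). Leaving out the subunits shared with Pol II, an alternative chosen after seeing the data, gave 24 higher and 3 lower, and leaving out genes with opposite probe sets, also chosen then, 23 and 4. Depth cannot be read from these arrays.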

Other observations

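TAF1D also hosts small nucleolar RNAs, and 5 probe sets are annotated with TAF1D together with such RNAs. They stood at 0.19, 0.01, 0.29, -0.22 and 0.08 (log2 fold change, knockdown minus control), of which 2 were called higher and 1 lower in the fit over all human probe sets, and they cannot be assigned to TAF1D alone.

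The array's control probe set for Alu repeats, sequences derived from a Pol III transcript and also present within many mRNAs, had log2 signals of 13.99 to 14.03 in knockdown and 13.99 to 14.01 in control (3 arrays each) and did not pass (adjusted p = 0.924). These signals lie close to 14.14, the highest value in the table.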
